A study of Mus musculus with 11 samples.

Results

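The comparison described here set 4 arrays of CD172a+ splenic classical dendritic cells (cDCs) labelled Zeb2-deficient against 4 arrays of CD172a+ cDCs from control mice, 8 of the 11 arrays in the series. The arrays were chosen by their labels, and no measured value entered the choice. The control mice were Zeb2 fl/fl, a genotype in which both copies of Zeb2 carry recombination sites and stay intact without Cre recombinase. The mice labelled Zeb2-deficient were Zeb2 fl/fl and carried a CD11c-Cre transgene, which is driven by the regulatory region of the integrin gene Itgax and is active in CD11c+ cells, so cells still in the course of deletion can be present. All mice were on the C57BL/6 background, the spleens were dissociated with collagenase B and DNase I, and the cells were sorted by FACS. Only the mice labelled Zeb2-deficient carried Cre, so an effect of the transgene and an effect of Zeb2 loss cannot be told apart. The other 3 arrays, CD24+ cDCs of control mice, are used only where a level in the other cDC subset is given.

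Zeb2 encodes a zinc-finger homeobox protein that binds the E-box core CACCT, most strongly in the form CACCTG, and mostly represses the genes it binds. It is best known for repressing epithelial adhesion genes during epithelial-to-mesenchymal transition, and in the blood system it acts in the development of plasmacytoid dendritic cells (pDCs) and monocytes, where Id2 is a described target. CD172a (Sirpa) marks the cDC2 subset of spleen, which presents antigen to CD4 T cells, while CD24+ cDCs belong to the cDC1 subset, which cross-presents antigen to CD8 T cells. The study's title and design place Zeb2 in this setting, and the comparison asks which transcripts of CD172a+ cDCs differ when the gene is targeted from the CD11c+ stage onwards.

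Values are log2 expression per gene on whole-transcript arrays, normalized by robust multi-array average (RMA). A difference of 1 is a 2-fold change, and RMA compresses differences near background, so a fold change of a weakly measured gene is not an exact ratio. Array medians ran from 5.46 to 5.52 over the 8 arrays. The arrays fell into 2 sets, replicates 1 and 2 against replicates 3 and 4, along a first principal component that held 60.5% of the variance, and 5228 genes differed between the sets at an adjusted p under 0.05. The labels do not say what separates the sets, and each set holds 2 arrays of each group. The set was therefore a term in the fit, and the difference within each set is given beside the pooled one. The standard deviations (SD) of the groups include the difference between sets. Nothing in the labels tells whether each replicate was a separate mouse. The p-values therefore reflect only how far these samples spread, and that spread may be technical. The transcripts of a cDC identity were present in both groups. Mean log2 levels in control and labelled Zeb2-deficient arrays were 12.50 and 12.50 for the MHC class II gene H2-Ab1, 9.51 and 9.82 for the growth factor receptor Flt3, 6.76 and 6.82 for Zbtb46, and 10.92 and 10.74 for Sirpa, the antigen used to sort the cells.

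Zeb2 itself was not lower in the arrays labelled Zeb2-deficient. The gene read 8.23, 8.23, 8.26 and 8.61 in control replicates 1 to 4 and 8.52, 8.32, 9.07 and 9.24 in the labelled replicates. Labelled replicates 1 and 2 lay below control replicate 4, so the groups overlapped over all 8 arrays, while within each set both labelled arrays lay above both controls. The means were 8.33 ± 0.19 (SD, n = 4) and 8.79 ± 0.44 (SD, n = 4), a difference of 0.45 with a standard error (SE) of 0.132 and, in limma with the set term, an unadjusted p of 0.00632 and an adjusted p of 0.27. Without the set term, an exact two-sided permutation test over the 70 assignments of arrays gave p = 0.171, where the smallest possible value was 0.0286, and the difference between sets adds to the spread in that test. The difference was 0.19 in replicates 1 and 2 and 0.72 in replicates 3 and 4. In the CD24+ control arrays Zeb2 read 5.19, 5.08 and 5.52, below every CD172a+ array of either genotype. Zeb2 was measured by 1 probe set that named this gene alone, and it checks the genotype only if its probes read the deleted exon. Where they lie was not analysed here. The neighbouring antisense transcript Zeb2os differed by 0.23 (limma adjusted p = 0.564), and the related repressor Zeb1 by 0.02 (adjusted p = 0.972). Arrays are therefore named by their label, and every direction given rests on those labels.

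A total of 45 of 19938 genes passed an adjusted p of 0.05 in the fit with the set term, which is 0.226% of the genes tested. Of these, 26 were higher (0.13%) and 19 were lower (0.0953%) in the arrays labelled Zeb2-deficient. Changes of at least 2-fold were seen for 14 of the higher and 4 of the lower genes. The adjusted p ran from 2.14e-06 for Plcb4 to 0.0456 for Mt1. All 45 had the same sign in both sets, and in each set the 2 labelled arrays lay wholly to 1 side of the 2 control arrays, which was also true of 8.7% of all genes. Over all 8 arrays, without regard to set, 30 of the 45 did not overlap between groups, against 2.1% of all genes (1.09% not overlapping and higher, 1.01% not overlapping and lower). The median difference over all genes was 0.00556, and 1888 genes (9.47%) had an unadjusted p under 0.05.

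The count depended on how the replicates were treated. Blocking by replicate number kept 26 of the 45 calls, 20 of them for higher and 6 for lower genes, and brought in no other gene. The only basis for this block was the number in the array titles. The arrays' correlations did not single out same-numbered pairs. After the set difference was removed, r for such pairs was 0.151 in replicates 1 and 2 and -0.158 in replicates 3 and 4. Without a set term 5 genes passed, namely Plcb4, Itgad, Cox6a2, Fcer2a and Lyz2, and 10 passed when all 11 arrays were fitted by group alone. With 1 array left out, between 13 and 69 genes passed. The fit without labelled replicate 1 ended 32 of the 45 calls, that without labelled replicate 2 and that without control replicate 2 ended 28 each, and those without control replicate 3 or 4 ended 8 each. A total of 11 genes passed in all 8 of these fits. They were Plcb4, Itgad, Cox6a2, Fcer2a, Ms4a1 and Eif2ak3 among the higher genes, and Lyz2, Scn3a, Myo1e, Cd300ld and H2bc3 among the lower ones.

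**Figure D1:**
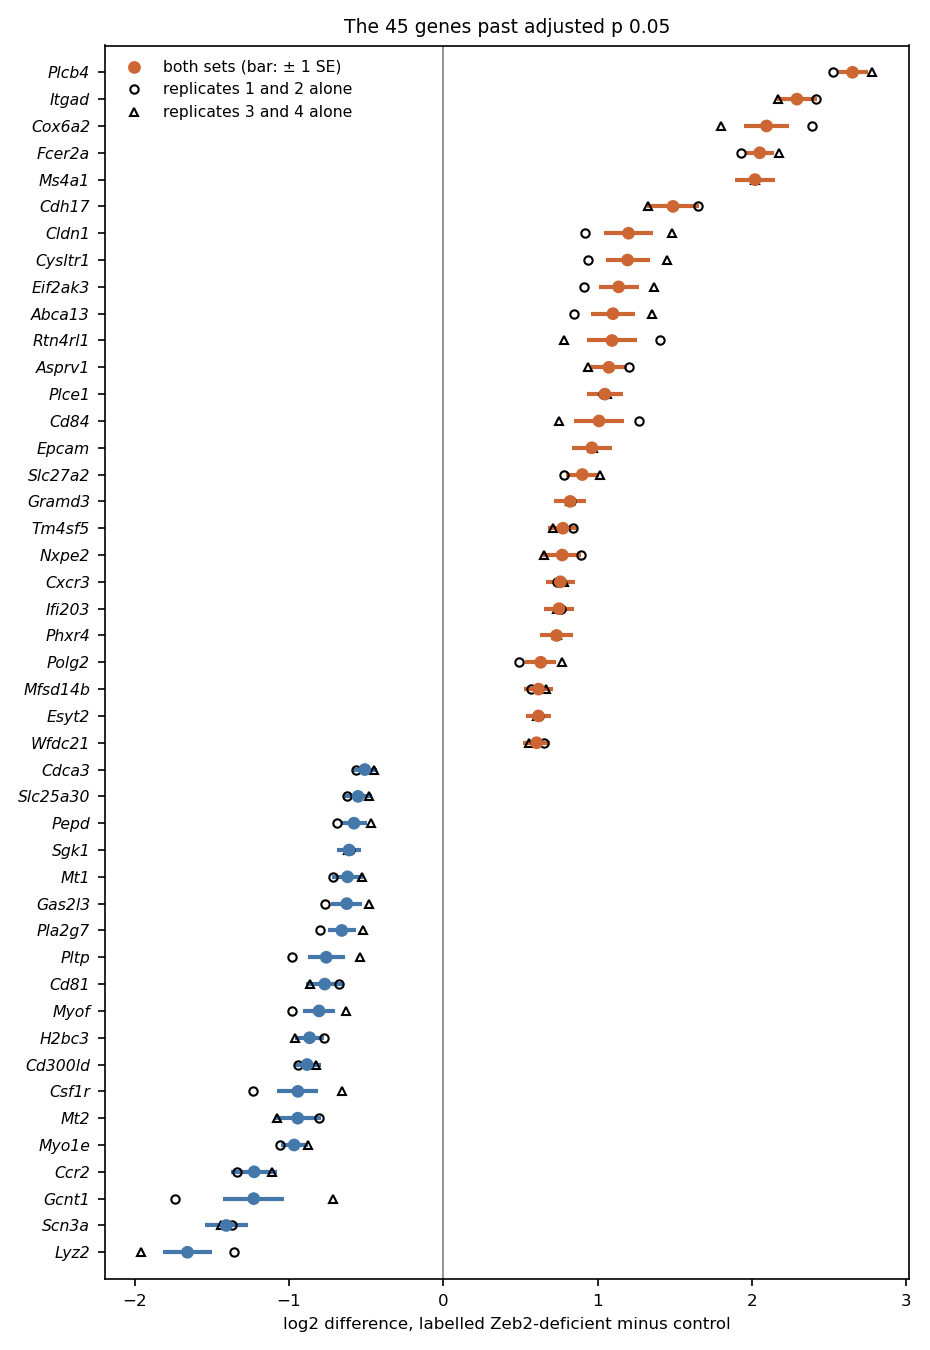
Log2 difference, labelled Zeb2-deficient minus control, of each of the 45 genes past an adjusted p of 0.05, with filled points for the fit over both sets, bars for ± 1 SE, open circles for replicates 1 and 2 alone and open triangles for replicates 3 and 4 alone. Both open symbols lie on the same side of 0 for every gene, and the values run from 2.65 for Plcb4 to -1.66 for Lyz2.

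The largest difference was in Plcb4, a phospholipase C isoform that releases inositol trisphosphate and diacylglycerol downstream of Gq-coupled receptors and is best known from neurons. Plcb4 read 5.45, 5.34, 5.68 and 5.90 in the control arrays and 7.99, 7.85, 8.49 and 8.66 in the labelled Zeb2-deficient arrays. Every labelled array lay more than 1 log2 unit above every control array. The means of 5.59 ± 0.25 and 8.25 ± 0.39 (SD, n = 4 each) differed by 2.65 (SE 0.1), a 6.28-fold increase (limma adjusted p = 2.14e-06). The increase was 2.52 in replicates 1 and 2 and 2.78 in replicates 3 and 4. The CD24+ control cDCs, at 6.84 ± 0.18 (SD, n = 3), lay between the CD172a+ groups.

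Among 35 measured genes of phospholipase C and phosphoinositide metabolism, 2 rose and 0 fell, and the list's median difference was -0.02. Over all genes 0.13% were called higher. The other riser was Plce1, a phospholipase C isoform that binds Ras family GTPases. It read 4.79, 4.37, 4.83 and 4.89 in the controls and 5.74, 5.48, 5.79 and 6.06 in the labelled arrays, without overlap. Its difference was 1.05, or 2.07-fold (SE 0.117, limma adjusted p = 0.00604), and its call ended without labelled replicate 1 (adjusted p = 0.0544). None of the other 13 phospholipase C isoforms measured passed. Among them Plcb1 differed by 0.26, Plcb2 by -0.02, Plcb3 by 0.10, Plcg1 by -0.10, and Plcg2, the isoform that acts behind the B cell receptor and C-type lectin receptors, by -0.20. Plcl1, an isoform without catalytic activity, had the largest of these differences, -0.55 (adjusted p = 0.386).

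Itgad encodes CD11d, an integrin alpha chain that pairs with the beta 2 chain and is known from macrophages of the splenic red pulp. It read 5.01, 5.62, 5.72 and 5.81 in the controls, near the array median, and 7.67, 7.78, 8.0 and 7.86 in the labelled arrays. The groups did not overlap. The rise was 2.29 (SE 0.132), or 4.89-fold, with a limma adjusted p of 4.56e-05, and it was 2.41 in replicates 1 and 2 and 2.17 in replicates 3 and 4. A lower-reading probe set of the same gene differed by -0.0103, so the rise was seen by 1 of the gene's 2 probe sets, and with probe sets averaged it was 1.14. Of 28 measured integrin genes Itgad alone passed the test, against 0.226% of all genes, and the list's median was 0.05. The beta 2 chain, Itgb2, differed by -0.23, and the alpha chains Itgax (CD11c) and Itgam (CD11b) by 0.32 (adjusted p = 0.406) and 0.34 (adjusted p = 0.306).

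Cox6a2, the heart and muscle isoform of a subunit of cytochrome c oxidase that pDCs also express, rose as well. Its control values were 6.46, 6.84, 6.89 and 6.97, and its labelled values were 9.09, 8.99, 8.87 and 8.59. The groups were more than 1 log2 unit apart. The difference was 2.09 (SE 0.143), or 4.27-fold (limma adjusted p = 0.000148), with 2.39 in replicates 1 and 2 and 1.80 in replicates 3 and 4. Cox6a1, the isoform of most other tissues, read 11.99 in the controls and 12.10 in the labelled arrays, a difference of 0.11 (adjusted p = 0.81).

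Itgad and Cox6a2 are adjacent in the RefSeq gene order of the mouse, and Itgad lies next to Itgax, the gene whose regulatory region drives the CD11c-Cre transgene. Of the 17 protein-coding genes from 8 before to 8 after Itgax in that order, 15 were measured and these 2 were called. Of all genes tested 0.226% were called. The other 13 differed by between -0.412 (Bckdk) and 0.343 (Itgam), and none passed. The labels do not say which part of the genome around Itgax the transgene carries, and its part in the values of these 2 genes was not tested.

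**Figure D2:**
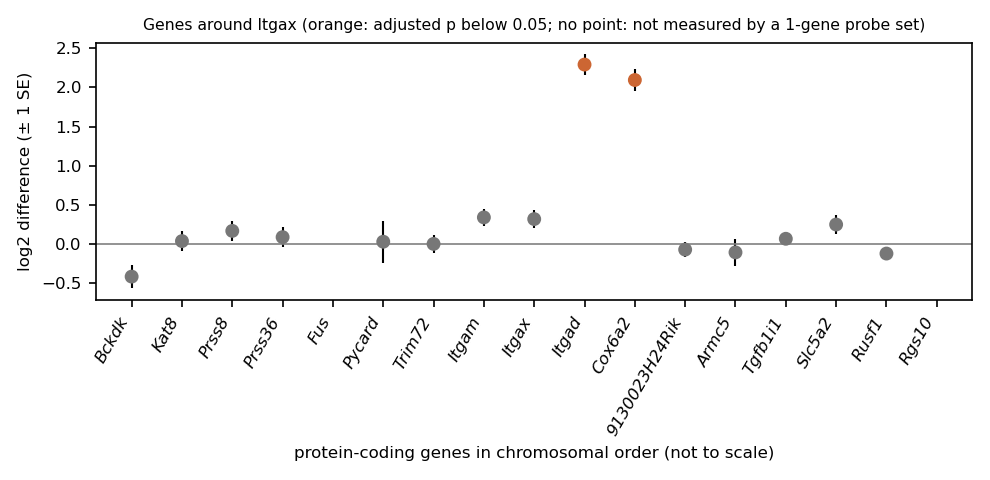
Log2 difference, labelled Zeb2-deficient minus control, with bars of ± 1 SE, of the protein-coding genes around Itgax in chromosomal order, not to scale. Itgad at 2.29 and Cox6a2 at 2.09 stand next to each other, while the other 13 measured genes lie between -0.412 and 0.343.

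A pair of genes best known from B cells also rose. Fcer2a encodes CD23, the low-affinity IgE receptor of B cells and some myeloid cells. It read 4.44, 4.34, 4.47 and 4.46 in the controls and 6.40, 6.22, 6.59 and 6.70 in the labelled arrays, an increase of 2.05 (SE 0.0929), or 4.14-fold (limma adjusted p = 6.42e-06). Ms4a1, which encodes the B cell surface protein CD20, read 6.68, 6.57, 5.44 and 6.10 in the controls and 8.64, 8.65, 7.79 and 7.79 in the labelled arrays. Its increase was 2.02 (SE 0.129), or 4.05-fold (adjusted p = 9.5e-05), and 2.02 within each set. Neither gene overlapped between groups, and both passed whichever array was left out, but without the set term Fcer2a passed and Ms4a1 did not (adjusted p = 0.259).

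The other 16 measured genes of an 18-gene B cell list did not pass in either direction, and the list's median difference was 0.12. Of all genes 0.226% passed. The level of the list, as its mean log2 value per array, was 5.62 to 5.94 in the controls and 5.87 to 6.29 in the labelled arrays. This mean includes Fcer2a and Ms4a1, so it is not a reading separate from theirs. Levels within the list varied. Cd79a, a chain of the B cell receptor complex, read 3.31 in the controls and 3.38 in the labelled arrays, and the B lineage transcription factors Pax5 and Ebf1 read 5.19 and 5.16, and 3.84 and 3.80. Cd79b, the partner chain of Cd79a, read 7.23 and 7.10, and the B cell lectin Cd22 read 8.30 and 7.95. The tetraspanin Cd37 read 7.88 and 7.79, and the B cell scaffold Bank1 7.35 and 7.48. The part of any B cells among the sorted cells was not tested. The B cell kinase Blk, 0.46 (adjusted p = 0.181), and the B cell protein Fcrla, 0.41 (adjusted p = 0.0995), did not pass.

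Genes of epithelial cell contacts were among the risers. Cdh17, a cadherin of intestinal epithelium that B cells also express, read 6.66, 6.12, 6.00 and 5.90 in the controls and 8.09, 7.99, 7.61 and 6.93 in the labelled arrays. The lowest labelled array lay above the highest control, and the difference was 1.49 (SE 0.166), or 2.8-fold (limma adjusted p = 0.00604). Cldn1, a tight junction claudin, read 5.14, 5.04, 5.22 and 5.69 against 6.05, 5.96, 6.71 and 7.17, a rise of 1.2, or 2.3-fold (SE 0.157, adjusted p = 0.0129). Epcam, an adhesion molecule of epithelia and Langerhans cells, read 4.55, 4.64, 4.71 and 5.11 against 5.78, 5.33, 5.73 and 6.02, a rise of 0.96, or 1.95-fold (SE 0.13, adjusted p = 0.0157). Neither Cldn1 nor Epcam overlapped between groups. The CD24+ control cDCs read 7.64 ± 1.31 (SD, n = 3) for Cldn1, above the labelled mean of 6.47, with the lowest CD24+ array at 6.14. For Cdh17 and Epcam they read 4.59 and 4.44 on average, below the CD172a+ control means of 6.17 and 4.75. Among the fits that left out an array, the Cdh17 call ended in that without labelled replicate 1 (adjusted p = 0.0554), and it also ended without the set term (0.436). That of Cldn1 ended without control replicate 2 or labelled replicate 1, 2 or 3 (0.0594 to 0.0745), and that of Epcam without control replicate 1 or 2 or labelled replicate 1, 3 or 4 (0.0542 to 0.0982).

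In a list of 30 measured epithelial genes that Zeb factors are known to repress, Cldn1 and Epcam rose, none fell, and 21 had a positive difference. The median was 0.13, with 0.19 and 0.05 in the sets taken in order, against 0.00556 and 51.5% positive over all genes. Of all genes 0.13% were called higher. Cdh1 (E-cadherin), the classical target of Zeb repression, differed by -0.13, the polarity gene Crb3 by 0.33, the tight junction scaffold Tjp1 by 0.36, and the junction protein Jup by -0.60 (adjusted p = 0.188). None of these 4 passed.

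**Figure D3:**
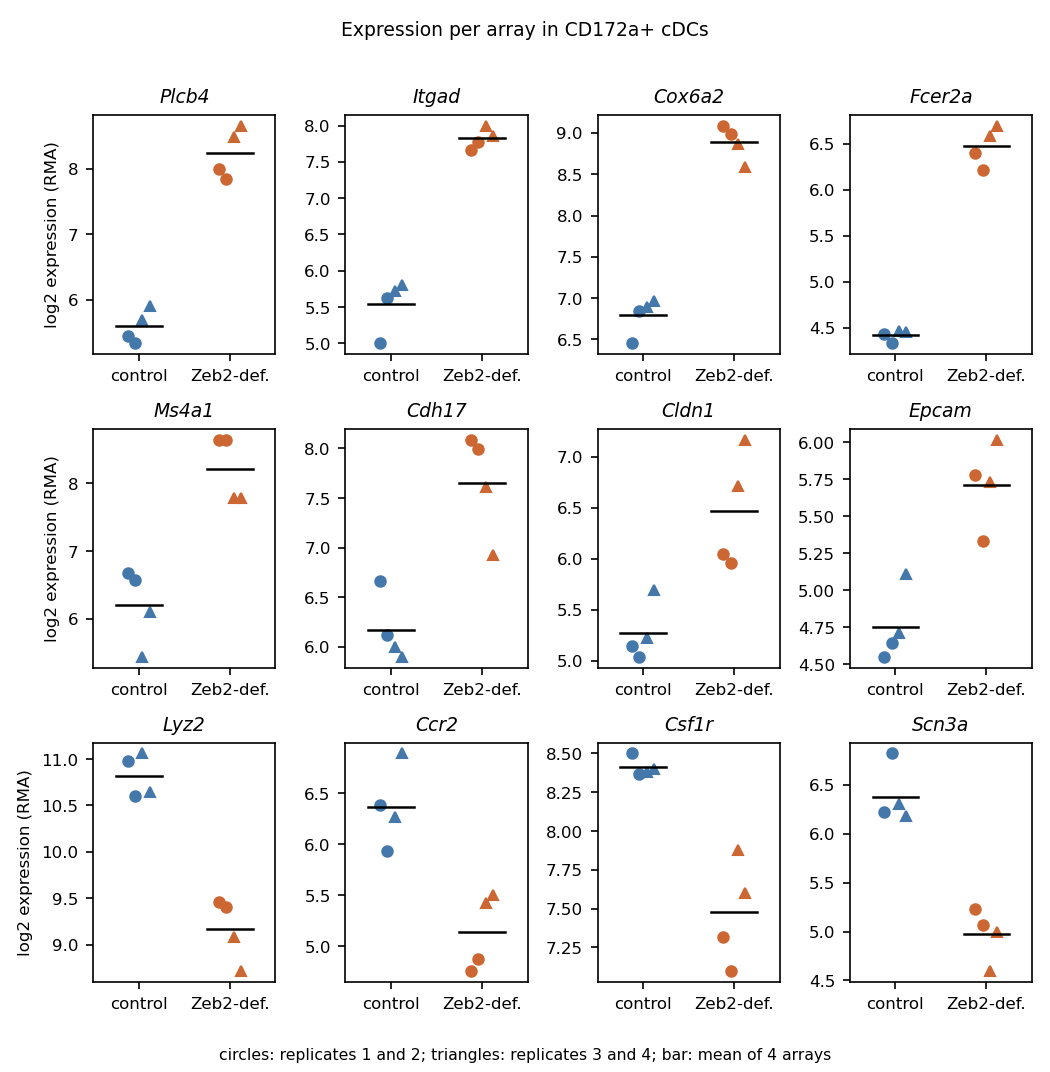
Log2 expression of 12 genes in each of the 8 arrays, with circles for replicates 1 and 2, triangles for replicates 3 and 4 and a bar at the mean of each group. The 12 genes were picked from the called genes, and their groups do not overlap. This holds for 30 of the 45 called genes and for 2.1% of all genes. Of the 12, 8 are higher and 4 lower in the labelled Zeb2-deficient arrays, and the sets differ in level for genes such as Ms4a1.

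The promoters of the called genes were read for the Zeb E-box, as RefSeq windows of 300 bases on GRCm38.p6, from 250 bases before to 50 bases after a transcript's start. CACCTG was searched on both strands, where it appears as CACCTG or CAGGTG, and each match also contains the shorter core CACCT. Of the 26 higher genes, 18 had a window in the table, and 9 of these (50%) held CACCTG in at least 1 window. Of the 19 lower genes, 17 had a window and 2 (11.8%), Gcnt1 and Mt2, held it. Over the 15614 measured genes with a window the share was 22.2%. By window, the shares were 40.9% of 22 for the higher genes, 12.5% of 24 for the lower genes and 19.6% of the 19177 windows of measured genes. The core CACCT was held by 77.3%, 37.5% and 51.2% of the same windows. The 9 higher genes were Asprv1, Cxcr3, Eif2ak3, Epcam, Fcer2a, Plcb4, Polg2, Slc27a2 and Tm4sf5. These shares are descriptions of letters in a window and were not tested. Binding was not measured here. The windows of Plcb4, Fcer2a and Epcam are printed because they hold the motif in genes that rose, and that of Lyz2, the gene that fell furthest among those called, because it holds none. Capitals mark CACCTG or CAGGTG, and the sequences run 5' to 3' on the strand of the gene. They lie at chr2:135764588-135764887 on the plus strand for Plcb4, whose other window in the table holds no CACCTG, at chr8:3690812-3691111 on the minus strand for Fcer2a, whose other 2 windows hold none, at chr17:87635729-87636028 on the plus strand for Epcam, and at chr10:117282223-117282522 on the minus strand for Lyz2.
Plcb4: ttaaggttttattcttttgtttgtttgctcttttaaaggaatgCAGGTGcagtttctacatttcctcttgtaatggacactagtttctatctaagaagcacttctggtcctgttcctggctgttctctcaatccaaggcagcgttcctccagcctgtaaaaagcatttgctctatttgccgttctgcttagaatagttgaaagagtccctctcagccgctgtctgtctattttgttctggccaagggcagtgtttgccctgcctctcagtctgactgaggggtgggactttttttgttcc
Fcer2a: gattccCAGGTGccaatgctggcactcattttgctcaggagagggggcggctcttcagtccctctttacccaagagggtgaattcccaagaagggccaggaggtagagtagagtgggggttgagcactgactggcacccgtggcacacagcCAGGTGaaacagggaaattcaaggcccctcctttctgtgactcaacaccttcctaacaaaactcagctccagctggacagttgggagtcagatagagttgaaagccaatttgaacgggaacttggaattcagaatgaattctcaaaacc
Epcam: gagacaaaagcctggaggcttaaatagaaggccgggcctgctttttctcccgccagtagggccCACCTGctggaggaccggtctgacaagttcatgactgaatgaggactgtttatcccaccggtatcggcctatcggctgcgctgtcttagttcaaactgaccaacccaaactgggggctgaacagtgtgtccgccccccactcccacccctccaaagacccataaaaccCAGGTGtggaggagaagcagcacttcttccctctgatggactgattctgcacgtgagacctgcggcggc
Lyz2: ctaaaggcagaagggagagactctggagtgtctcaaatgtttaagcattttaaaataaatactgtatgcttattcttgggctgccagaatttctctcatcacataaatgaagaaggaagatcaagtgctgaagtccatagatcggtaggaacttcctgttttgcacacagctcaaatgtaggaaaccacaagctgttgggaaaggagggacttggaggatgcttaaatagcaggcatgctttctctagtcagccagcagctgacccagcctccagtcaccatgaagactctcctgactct

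The risers also included 4 genes of cell surface receptors, put side by side here after their values were seen. Cxcr3, the receptor for the interferon-induced chemokines Cxcl9 and Cxcl10, read 5.86, 5.80, 5.37 and 5.55 in the controls and 6.46, 6.67, 6.16 and 6.32 in the labelled arrays. The groups did not overlap, and the rise was 0.76 (SE 0.0917), or 1.69-fold (limma adjusted p = 0.00883). Cysltr1, a receptor for cysteinyl leukotrienes, read 6.90, 6.37, 6.00 and 5.84 against 7.63, 7.52, 7.44 and 7.30, a rise of 1.19, or 2.29-fold (adjusted p = 0.00883). Cd84, a self-binding receptor of the SLAM family, rose from 5.86 to 6.87 on average (adjusted p = 0.0444), with overlap between groups. Rtn4rl1, a receptor related to the Nogo receptor of neurons, rose from 6.41 to 7.5 (adjusted p = 0.0254), also with overlap. Of these, Cxcr3 lost its call without control replicate 2 or labelled replicate 2 or 4 (0.054 to 0.0633), and Cysltr1 without control replicate 2 or labelled replicate 1, 3 or 4 (0.054 to 0.0619). Rtn4rl1 passed only without control replicate 3 or 4, and Cd84 only without control replicate 4. When replicate number was the block, Cd84 did not pass (adjusted p = 0.1), and the other 3 did. In the list of 37 chemokine and chemokine receptor genes Cxcr3 was the only riser and Ccr2 the only gene that fell. Of all genes 0.13% were called higher and 0.0953% lower.

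Eif2ak3 encodes PERK, the kinase that slows translation when unfolded proteins accumulate in the endoplasmic reticulum. It read 7.36, 7.45, 7.37 and 7.37 in the controls, which differed little, and 8.32, 8.31, 8.49 and 8.97 in the labelled arrays. The rise was 1.14 (SE 0.129), or 2.2-fold (limma adjusted p = 0.00645). It was the only 1 of 32 measured unfolded protein response genes to pass, against 0.226% of all genes, and the list's median was 0.00. The chaperone Hspa5 differed by -0.01, the transcription factors Ddit3, Atf4 and Xbp1 by 0.04, -0.05 and 0.02, and Chac1, which degrades glutathione, by 0.46 (adjusted p = 0.0995).

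Among genes of transport and metabolism, Slc27a2, a fatty acid transporter and acyl-CoA synthetase, read 5.64, 5.64, 5.64 and 5.46 in the controls and 6.58, 6.27, 6.46 and 6.68 in the labelled arrays. It rose 1.87-fold (limma adjusted p = 0.00862), and was the only 1 of 18 fatty acid genes to pass, against 0.226% of all genes. Abca13, a large transporter of the ABC family, rose by 1.10 (adjusted p = 0.0129) with overlap between groups. Asprv1, a protease known from skin, rose by 1.07 (adjusted p = 0.00604), and Gramd3, which carries a lipid-binding GRAM domain, by 0.82 (adjusted p = 0.00946). The calls of Slc27a2 and Asprv1 ended without labelled replicate 1 (0.0684 and 0.0544). Abca13 and Gramd3 passed in 4 and 3 of the 8 fits that left out an array. A further 8 genes rose by 0.60 to 0.77 and fell outside the rule for naming. They are given here after their values were seen: Tm4sf5, Nxpe2, Ifi203, Phxr4, Polg2, Mfsd14b, Esyt2 and Wfdc21. They passed in 1 to 4 of the 8 fits that left out an array, and Nxpe2, Polg2, Mfsd14b, Esyt2 and Wfdc21 did not pass when replicate number was the block.

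Of the 19 genes that fell, 4 were in the list of monocyte genes. Lyz2, which encodes the lysozyme of myeloid cells, read 10.98, 10.60, 11.06 and 10.65 in the controls and 9.46, 9.41, 9.08 and 8.72 in the labelled arrays. Every labelled array was at least 1 log2 unit below every control array. The means of 10.82 ± 0.23 and 9.17 ± 0.34 (SD, n = 4 each) differed by -1.66 (SE 0.16), a 3.15-fold decrease (limma adjusted p = 0.00281), with -1.36 in replicates 1 and 2 and -1.96 in replicates 3 and 4. In such bulk samples, fewer cells of a type and less RNA per cell cannot be told apart. The CD24+ control cDCs were at 10.96, beside the CD172a+ controls. Lyz1, its close paralog, read 7.86, 7.27, 10.49 and 10.46 in the controls and 6.75, 6.48, 7.82 and 7.32 in the labelled arrays. Its difference of -1.93 missed the threshold (adjusted p = 0.0674), at -0.95 for replicates 1 and 2 and -2.91 for replicates 3 and 4, and probes of such near-identical genes can pick up both transcripts.

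Ccr2, the chemokine receptor that draws monocytes out of bone marrow, read 6.38, 5.93, 6.27 and 6.89 in the controls and 4.76, 4.87, 5.42 and 5.50 in the labelled arrays. The groups did not overlap, and the difference was -1.23 (SE 0.148), a 2.34-fold decrease (limma adjusted p = 0.00883). Csf1r, the receptor for the growth factor of monocytes and macrophages, read 8.5, 8.37, 8.38 and 8.40 against 7.32, 7.10, 7.88 and 7.60, a difference of -0.94 (SE 0.132, adjusted p = 0.0202). The Csf1r controls were close together and above every labelled array. Cd300ld, a CD300 family receptor of myeloid cells, read 7.70, 7.84, 8.79 and 8.71 against 6.91, 6.73, 7.96 and 7.90. Its groups overlapped over all 8 arrays but not within a set, and it fell 1.84-fold (adjusted p = 0.0031). Ccr2 lost its call without labelled replicate 1, 2 or 3 (0.0542 to 0.0738). Csf1r lost it without control replicate 1 or 2 or labelled replicate 1, 2 or 4 (0.0886 to 0.114), and did not pass when replicate number was the block (adjusted p = 0.0795).

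Lyz2, Ccr2, Csf1r and Cd300ld were the 4 of 26 measured monocyte genes that passed, and none rose. Over all genes 0.226% passed and 0.0953% were called lower. The list was chosen with earlier results of these data known, so this count is a description and not a test. Of the 26, 8 had a positive and 18 a negative difference, the median was -0.07, and with 1 array left out between 2 and 5 passed. The mean level of the list was 8.05 to 8.22 in the control arrays and 7.70 to 7.85 in the labelled arrays. The groups did not overlap on this mean, but it includes the 4 called genes and Lyz1 (-1.93). It is therefore not a separate observation, and the median of -0.07 shows that a typical member differed little. Among members that did not pass, the adhesion G protein-coupled receptor Adgre4 differed by -1.2 (adjusted p = 0.102), and the fractalkine receptor Cx3cr1 by -0.79 (adjusted p = 0.103). None of 20 splenic macrophage genes passed, with a median of -0.06 and mean levels of 5.66 to 6.71 in the controls and 5.73 to 6.69 in the labelled arrays. The part of any monocytes among the sorted cells in these falls was not tested. In the list of 31 C-type lectin receptor genes, none passed, and Clec7a, the receptor for fungal beta-glucan, differed by -0.65 (adjusted p = 0.0967).

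Other genes that fell act in very different processes. Scn3a, a voltage-gated sodium channel of neurons, read 6.22, 6.82, 6.30 and 6.18 in the controls and 5.23, 5.07, 4.60 and 5.0 in the labelled arrays, without overlap. It fell by 1.41 on the log2 scale (SE 0.141), or 2.65-fold (limma adjusted p = 0.0031), alike in both sets (-1.37 and -1.44). Scn3a was the only 1 of 11 sodium channel genes to pass, against 0.226% of all genes. Gcnt1, an enzyme that branches O-linked glycans and shapes selectin ligands, fell from 6.63 to 5.40 (adjusted p = 0.0444), with -1.74 for replicates 1 and 2 and -0.72 for replicates 3 and 4. Myo1e, a myosin of the cell cortex, read 6.73, 6.61, 7.63 and 7.55 against 5.67, 5.55, 6.68 and 6.76, a difference of -0.97 (adjusted p = 0.0018). H2bc3, a replication-dependent histone H2B gene, read 7.87, 7.62, 6.02 and 6.03 against 6.95, 6.99, 5.12 and 5.02, a difference of -0.87 (adjusted p = 0.00491). In Myo1e and H2bc3 the shift between groups was nearly the same in each set, on top of a set difference of similar or greater size. Histone H2B genes are close copies, and the probe set was taken as annotated.

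The metallothioneins Mt1 and Mt2, which bind zinc and copper, fell together. Mt2 read 6.97, 6.87, 8.11 and 8.09 in the controls and 6.48, 5.73, 7.02 and 7.02 in the labelled arrays, a difference of -0.94 (limma adjusted p = 0.0406). Mt1 read 9.20, 9.20, 10.12 and 10.24 against 8.66, 8.31, 9.68 and 9.64, a difference of -0.62 (adjusted p = 0.0456). In each set both labelled arrays were below both controls for both genes. Single genes of other functions fell too: Myof, a membrane repair protein, by 0.80 (adjusted p = 0.0129), the tetraspanin Cd81 by 0.77 (0.0372), the phospholipid transfer protein Pltp by 0.76 (0.0418) and Pla2g7, which inactivates platelet-activating factor, by 0.66 (0.0201). Gas2l3, a linker of actin and microtubules, fell by 0.63 (0.0444). Mt1, Mt2, Cd81, Gas2l3 and Gcnt1 each passed in 1 of the 8 fits that left out an array, Pltp and Pla2g7 in 2 and Myof in 4. None of the 8 passed when replicate number was the block (0.055 to 0.137). A further 4 genes fell by 0.51 to 0.61 and are given after their values were seen: Sgk1, Pepd, Slc25a30 and Cdca3. None of these 4 passed when replicate number was the block, and Sgk1 and Pepd passed in 2 of the fits that left out an array, Slc25a30 in 1 and Cdca3 in 0.

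The main transcription factors and surface markers of the dendritic cell subsets did not pass the test. Id2, a repressor of E proteins that favours cDC over pDC development, differed by 0.56 (limma adjusted p = 0.0785), and the cDC1 factor Batf3 by 0.39 (adjusted p = 0.123). The cDC2 factors Irf4, Klf4 and Notch2 differed by 0.35, 0.30 and 0.03, the cDC1 and pDC factor Irf8 by 0.05, and the pDC master factor Tcf4 by -0.27. Runx1 differed by -0.46 (adjusted p = 0.0988). The signs of Irf8 and Notch2, and of Cd8a at 0.02, changed with single arrays left out. Surface markers of the cDC2 subset went both ways, at -0.18 (Sirpa), -0.32 (Cd4), -0.36 (Esam), 0.34 (Itgam) and 0.18 (Clec4a4). Of the 29 measured cDC2 genes 13 had a positive and 16 a negative difference. Markers of cDC1 were at 0.24 (Cd24a), 0.22 (Xcr1) and -0.72 (Clec9a, adjusted p = 0.181). None of 44 transcription factors of dendritic cell development passed, with a median of 0.00.

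Lists of cell type genes held few called members. For comparison, 0.13% of all genes were called higher and 0.0953% lower. Of 29 cDC2 genes 0 rose and 2 fell (Ccr2 and Csf1r, both also in the monocyte list), with a median of -0.04, and of 26 cDC1 genes none passed, with 19 positive and a median of 0.20. Of 26 pDC genes, Cox6a2 rose and Pltp fell, with a median of 0.07. The pDC surface lectin Siglech differed by 0.43 (limma adjusted p = 0.583), and the mean level of the pDC list was 6.37 to 6.71 in the controls and 6.49 to 6.81 in the labelled arrays. None passed among 18 pan-cDC genes, 18 T and NK cell genes, 14 neutrophil genes or 10 erythroid genes, whose medians were 0.06, 0.02, -0.05 and 0.09. None of 12 antigen presentation genes of the MHC class II pathway passed either (median 0.01).

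**Figure D4:**
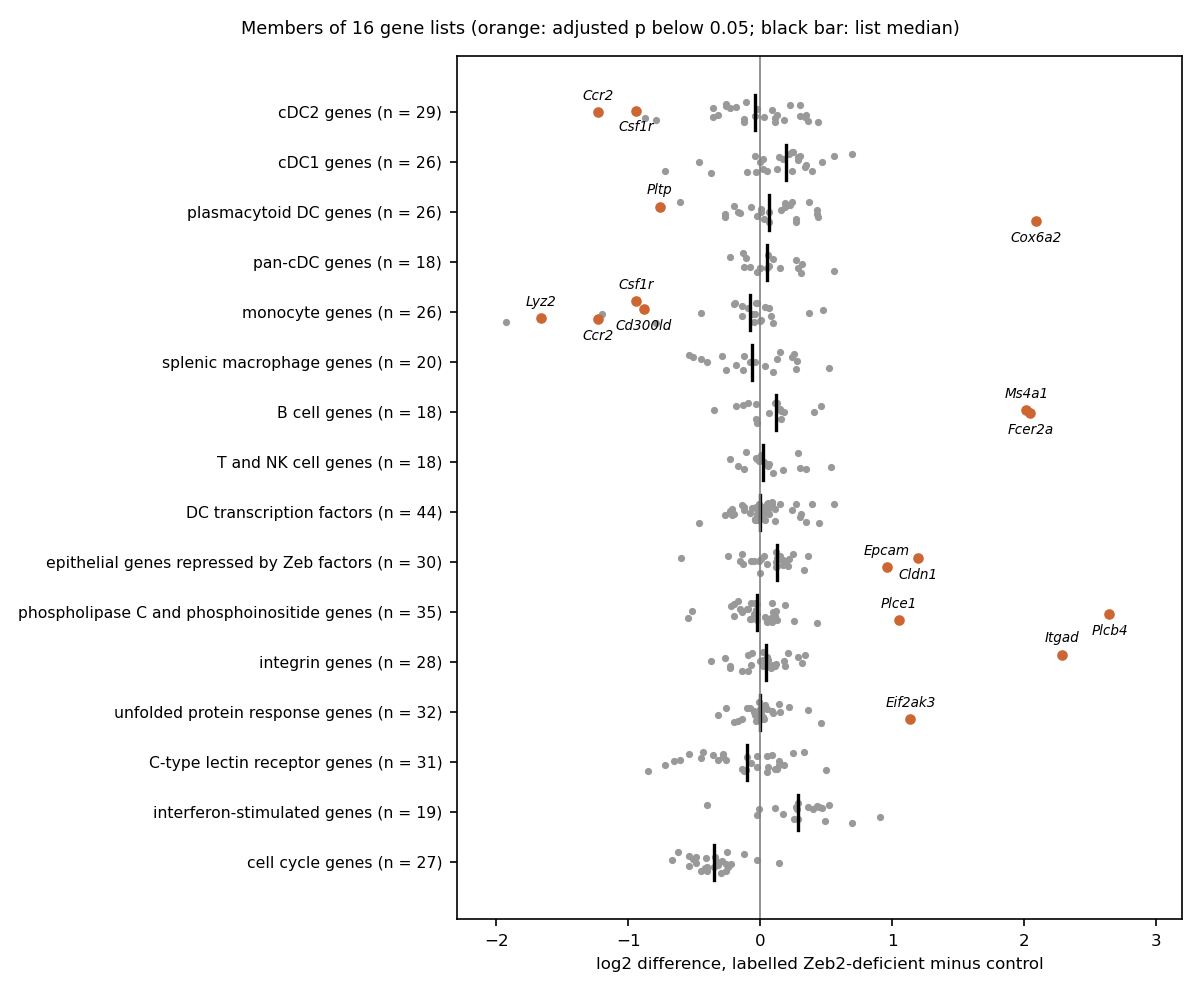
Log2 difference, labelled Zeb2-deficient minus control, of each measured member of 16 gene lists, with orange points for members past an adjusted p of 0.05 and a black bar at the list's median. Most lists centre near 0 with at most 4 members past the threshold, while the medians of the cell cycle list (-0.35) and the interferon-stimulated list (0.29) lie away from 0 with no member past it.

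The cell cycle and interferon-stimulated lists had the medians furthest from 0, while no member of either passed. Other lists without a called member also leaned to 1 sign. Of the erythroid and platelet genes 8 of 10 were positive, of the cDC1 genes 19 of 26 were positive, and of the neutrophil genes 10 of 14 were negative. Of 27 cell cycle genes 26 had a negative difference, and the median was -0.35, with -0.42 for replicates 1 and 2 and -0.33 for replicates 3 and 4. The mitotic genes Kif11 and Nusap1 differed by -0.67 and -0.62 (limma adjusted p = 0.0976 for both). Of 19 interferon-stimulated genes 16 had a positive difference, and the median was 0.29, but it was 0.54 in replicates 1 and 2 and 0.12 in replicates 3 and 4. Oasl2, an interferon-induced antiviral gene, had the largest difference of that list at 0.91 (adjusted p = 0.0722). Genes of such lists are co-expressed, so the count of signs is not a count of independent observations. Over all 19938 genes 51.5% were positive.

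Other lists moved little. None of 30 genes of TGF-beta signalling, the pathway from which Zeb2 is named Smad-interacting protein, passed (median -0.02), nor did any of 17 Toll-like receptor pathway genes (median 0.10) or of 22 immediate-early genes (median 0.01), which mark handling stress. Of 33 cytokine receptor genes Csf1r alone passed (median 0.04), against 0.226% of all genes. The oxysterol receptor Gpr183, which positions cDC2s at the bridging channels of the spleen, differed by 0.51 (limma adjusted p = 0.0722).

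The effect itself was compared between the sets with an interaction term. No gene had a different effect in replicates 1 and 2 than in replicates 3 and 4 at an adjusted p under 0.05 in limma, while 1258 genes had an unadjusted p under 0.05. The lowest adjusted p of the interaction among the 45 called genes was 0.717. Of the 45, 28 also differed in level between the sets. Within either set alone, where 2 arrays face 2, no gene passed, with 2260 genes at an unadjusted p under 0.05 for replicates 1 and 2 and 1087 for replicates 3 and 4.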

How the data were processed

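Cells were sorted from spleen by FACS, per the submitters' design text, and RNA (RNAqueous-Micro kit) was amplified with the Ovation PicoSL kit and biotin-labelled, per the labels' protocols. The authors deposited log2 expression values per probe set, for which the submitters' processing notes name RMA. This method subtracts background, equalises the arrays' distributions and summarises probes, so a global shift would not be seen. Software version and genome build are not given in the sources used here. Of 30177 probe sets, 21789 named 1 gene in the platform annotation, 1621 named several and 6767 none. The 19938 genes were each taken from the probe set with the highest mean, which mattered for 999 genes. No 2 arrays shared more than 5.2% of their values.

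The linear model was fitted in R 4.3.3 with limma 3.58.1 (lmFit, eBayes, two-sided, Benjamini-Hochberg adjustment over all 19938 genes, threshold 0.05), with group and replicate set as terms. Same-numbered arrays of the 2 groups deviated together (r from 0.442 to 0.68), but so did other-numbered arrays of the same set (0.496 to 0.699). After the set difference was removed, r was 0.151 for replicates 1 and 2 and -0.158 for replicates 3 and 4. The numbers are in the array titles, which do not say that they mark shared mice. Alternatives covered the blocks, the normalization, the filter on low genes, the variance model, the choice of probe set and leaving out each array. Named genes were the up to 15 called genes per direction with the largest difference and the same sign in both sets, leaving out predicted and small RNA genes and receptor segments, 37 genes listed by name, and up to 4 members of each of 15 lists. Also named were all measured phospholipase C isoforms, the Lyz and Cox6a genes and the immediate neighbours of Itgax. Further list members given in the text, such as Cdh1, Cd79a and Adgre4, fall outside this rule. The lists, the naming rule and the set term were chosen with earlier results of these data known. Lists are described by counts and medians and were not tested.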

Additional observations from a re-analysis of the deposited data

Results flagged for a closer look

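For the named genes, each group of 4 arrays was checked for an array that stood apart by Dixon's criterion (the gap to the nearest array over the group's range). Chance meets it in about 1 group in 20 when the 4 values come from a single normal distribution. Each group here joined arrays of 2 sets, so that rate is not a measure for these groups. Of 204 groups of values, 4 met it. Zeb2 was highest in control replicate 4, at 8.61 against 8.23 to 8.26 in the other controls. Eif2ak3 was highest in control replicate 2, at 7.45 against 7.36 to 7.37. Slc27a2 was lowest in control replicate 4, at 5.46 against 5.64 in the other 3. Plcb3 was lowest in labelled Zeb2-deficient replicate 3, at 5.58 against 5.80 in the other 3.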

How the results depend on the processing

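The count of 45 called genes was 5 without the set term, 26 with the replicate number as a block (the pairing by number) and 10 when all 11 arrays were fitted by group alone. It was 0 within replicates 1 and 2 and 0 within replicates 3 and 4, fits added after the data were seen, with 2260 and 1087 genes at an unadjusted p under 0.05 in limma. With 1 array left out it ran from 13 to 69. Centring array medians (48), a further quantile normalization (54), a mean of probe sets (45) and a trended, robust variance (42) kept it within 1.5 times, and 65 of 10225 genes passed when low genes were left out. The count of genes whose effect differed between sets rose from 0 to 1 under quantile normalization again and to 1 with trended, robust variance, and ran from 0 to 1 with 1 array left out. None of the called genes named changed direction. Under quantile normalization again, Plcb2 was at 0.0174 and Plch1 at -0.00889, opposite in sign to the reported values. With 1 array left out, 7 genes that did not pass changed sign: Zeb1 ran from -0.04 to 0.0861, Irf8 from -0.0509 to 0.186, Notch2 from -0.0283 to 0.071, Cd8a from -0.11 to 0.154, Plcb2 from -0.0841 to 0.019, Plch1 from -0.0753 to 0.128 and Plch2 from -0.00306 to 0.254. The cause of these changes was not tested. The Zeb2 difference stayed between 0.33 and 0.548 and did not pass under any of these settings. The number of arrays, 4 in each group with 5 residual degrees of freedom, limits the precision, and for 12 of the 45 called genes the lower group mean was under the median level of the control arrays, where RMA compresses differences.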
